A study of Mus musculus with 8 samples.

Results

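The genes described here are 8 genes of bile acid synthesis and transport in the mouse liver, out of 22059 genes listed for every library. They were chosen by name: Cyp7a1, Cyp8b1, Cyp27a1 and Cyp7b1, which hydroxylate cholesterol or its oxysterol products, Baat, which joins bile acids to taurine or glycine, and the membrane carriers Slc10a1, Slco1b2 and Abcb11. Each symbol matched exactly 1 gene in all 8 libraries, and none of the 8 genes was at 0 reads in any library. All 8 passed the filter on low counts that left 17081 genes in the tests.

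Bile acids are made from cholesterol in hepatocytes. The classic route starts with CYP7A1, its rate-limiting enzyme, and CYP8B1 decides how much cholic acid it yields, while the alternative route starts with the mitochondrial enzyme CYP27A1 and continues through the oxysterol hydroxylase CYP7B1. Conjugated bile acids leave the hepatocyte through the canalicular bile salt export pump (BSEP, encoded by Abcb11), and bile acids returning from the gut in portal blood are taken up by NTCP (Slc10a1) and by organic anion carriers such as OATP1B2 (Slco1b2).

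The study followed gene expression and splicing in the developing mouse liver by paired-end RNA sequencing. Whole livers of FVB/NJ wild-type mice were collected at embryonic day 18 (E18), postnatal day 14 (P14), postnatal day 28 (P28) and 3 months of age (adult), with 2 libraries per stage described as biological duplicates. No treatment or engineered allele was used in these groups. The labels name neither the sex, litter, pooling, diet nor hour of collection of the animals, although the methods describe adult mice of 3 months as male and the study as a whole as covering both sexes, so weaning age, diet and stage cannot be told apart. The tissue is whole liver, which is a haematopoietic organ before birth, and in such bulk samples fewer cells of a type and less RNA per cell cannot be told apart.

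The libraries held 68154675 to 106055723 reads on genes, with a median of 85098383.5, so that even the lowest member count, 77 reads of Cyp7b1 at E18, was well above 0. Hepatocyte genes were detected in every library. A gene was called changed when the edgeR quasi-likelihood test gave an adjusted p below 0.1 and the fold change exceeded 3. Of 15 hepatocyte genes, 11 rose from E18 to adult liver (median log2 fold change 2.15), all 4 fetal hepatocyte genes fell, and all 9 erythroid genes fell (median -7.83), with a summed erythroid level of 9934 and 12928 CPM (reads scaled to a library of 1000000) at E18 and 106 and 96.2 CPM in adult liver. The other marker lists changed from E18 to adult liver as follows: 5 of 7 further haematopoietic genes fell, 1 of 5 bile duct genes rose and 3 fell, 5 of 7 tested exocrine pancreas genes fell, 1 of 4 endothelial genes fell, 1 of 4 stellate cell genes rose and 1 fell, and 2 of 4 macrophage genes rose and 1 fell. The exocrine pancreas list summed to 233 and 509 CPM in the E18 duplicates, against 4.01 to 14.5 CPM in the 6 later libraries, and its 8 genes were all higher in E18 replicate 2. Their part in the changes of the bile acid genes was not tested.

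The duplicates of the 2 younger stages also differed in sex-linked transcripts. Xist, which is transcribed from the inactive X chromosome, had 107378 and 10229 reads at E18 and 50 and 50828 reads at P14, but only 43 to 78 reads in the P28 and adult libraries. The Y-linked gene Ddx3y had 0 and 3421 reads at E18 and 4966 and 513 reads at P14, and 3178 to 4378 reads in the P28 and adult libraries. Transcripts of both kinds were present together in E18 replicate 2 and P14 replicate 2, and the older libraries carried Y-linked reads with little Xist.

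Expression of each gene is given below as RPKM, a read density that divides counts by gene length and library size, recomputed from the deposited counts with library sizes scaled by TMM, the trimmed mean of M-values. All 8 members were lowest at E18, when none exceeded 10.8 RPKM in any library. With TMM scaling, their largest increase on the log2 scale fell between E18 and P14 for every member except Cyp7b1. After P14 the genes parted. Cyp27a1, Baat and Cyp7b1 rose again by more than 3-fold to P28, while Cyp7a1 was lower at P28 than at P14. Cyp8b1, Slc10a1, Slco1b2 and Abcb11 were higher at P28 by less than 3-fold (edgeR adjusted p below 0.1). Between P28 and adult liver Cyp7b1 alone among the members rose by more than 3-fold. Cyp7a1, Cyp27a1 and Slco1b2 were higher in adult liver by less than that (edgeR adjusted p below 0.1).

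**Figure D1:**
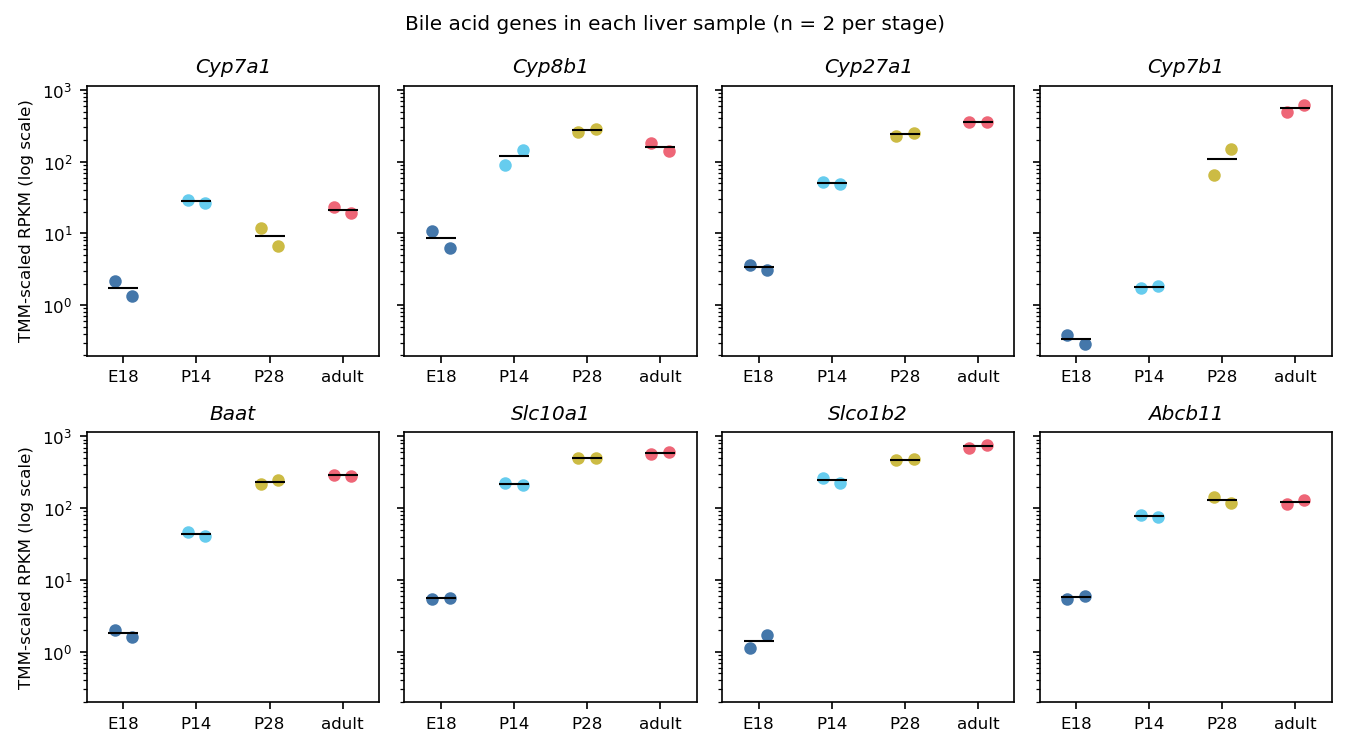
TMM-scaled RPKM (log axis) of the 8 bile acid genes in each of the 8 liver libraries, by stage; points are the 2 libraries and the horizontal line is their mean. Every E18 point sits below every later point of the same gene, the P28 points of Cyp7a1 (11.8 and 6.71) sit below its P14 points (29.3 and 26.6), and Cyp7b1 climbs at every step.

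Over the 4 comparisons, all 8 members rose from E18 to P14, where 13.8% of the tested genes rose and 15.4% fell. The members' median log2 fold change was 3.94, against -0.03 over all tested genes. From P14 to P28, 3 members rose (Cyp27a1, Cyp7b1 and Baat) against a background of 3.61%, and 1 fell (Cyp7a1) against 5.98%. From P28 to adult liver, 1 member rose (Cyp7b1) against 0.767% and 0 fell against 2.24%. At an unadjusted p under 0.05 in edgeR, with no fold threshold, 5 members were higher in adult liver than at P28 and 1 was lower (Cyp8b1), and DESeq2 and limma likewise called 0 falls. From E18 to adult, all 8 rose against 16.8%, and none fell against 23.8%, with a median log2 fold change of 6.72 against -0.11 over all tested genes. Both later libraries were above both earlier ones for 8 members from E18 to P14, for 7 from P14 to P28 and for 6 from P28 to adult. Both were below for 1 member from P14 to P28 and for 1 from P28 to adult. The shares of all tested genes so separated, or past the unadjusted p alone, were not counted. After the sex-linked reads had been seen, a run was added without E18 replicate 1 and P14 replicate 2, the libraries with the most Xist reads of their stage. It leaves 1 library at each of these stages, so no counts from it are given.

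**Figure D2:**
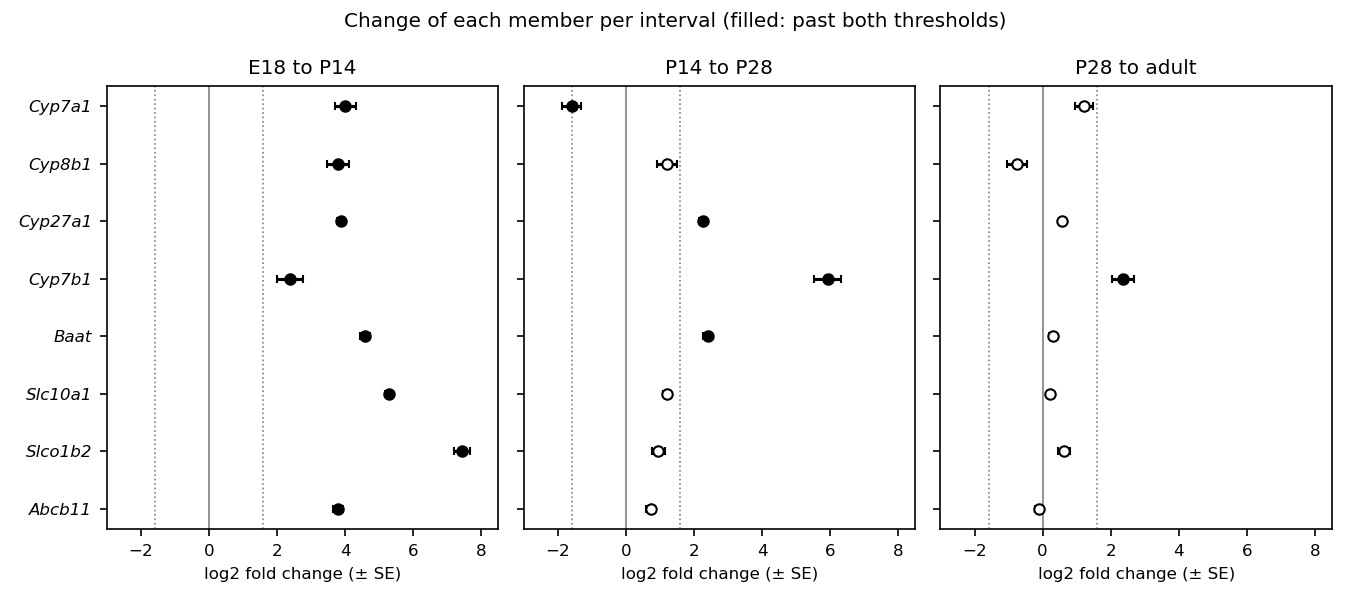
Log2 fold change (± SE) of the 8 members in each interval between consecutive stages, with dotted lines at 3-fold and filled points past both thresholds. All 8 points are filled from E18 to P14, 4 from P14 to P28 with Cyp7a1 on the negative side at -1.59, and only Cyp7b1 at 2.36 from P28 to adult.

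Cyp7a1, at chr4:6265612-6275633 on the minus strand of GRCm38, encodes the enzyme that commits cholesterol to the classic route. It measured 2.14 and 1.33 RPKM in the E18 libraries, 29.3 and 26.6 in those of P14, 11.8 and 6.71 in those of P28, and 23.7 and 19.3 in the adult ones. Its order was thus E18, P28, adult and P14 from lowest to highest, with no overlap between neighbouring stages. The log2 fold change was 4.01 ± 0.30 (SE; adjusted p = 2.9e-06) from E18 to P14 and -1.59 ± 0.28 (adjusted p = 0.0017) from P14 to P28. The P28 to P14 ratio of 0.332 was only just past the 3-fold threshold and fell short of it under 7 of the alternative settings. From P28 to adult liver Cyp7a1 was higher by 1.22 ± 0.27 on the log2 scale (adjusted p = 0.020), which is under 3-fold. Adult and P14 levels could not be separated (log2 difference -0.38, adjusted p = 0.27).

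Cyp7a1 is known to follow a daily rhythm, and the hour at which livers were taken is not given. The D-box factor gene Dbp, whose transcript cycles strongly in liver, measured 25.1 and 83.8 RPKM in the P28 duplicates, and 181 and 110 in the adult duplicates. Per1 measured 2.17 and 1.49 RPKM at P28, below the 16.1 and 13.9 at P14. Of 14 clock genes, 3 rose and 1 fell from P14 to P28, and 2 rose (Per1 and Bhlhe41) and 2 fell (Arntl and Npas2) from P28 to adult. The part of collection time in the levels of Cyp7a1 was not tested.

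Cyp8b1, a single-exon gene at chr9:121914356-121916305 on the minus strand, encodes the hydroxylase that directs intermediates to cholic acid. It measured 10.8 and 6.22 RPKM in the E18 libraries, 89.4 and 147 in those of P14, 258 and 289 in those of P28, and 185 and 139 in the adult ones. It was the most abundant member per length at E18, and its adult libraries lay below its P28 libraries. The log2 fold change from E18 to P14 was 3.80 ± 0.32 (adjusted p = 5.9e-06). It was higher at P28 than at P14 by 1.21 ± 0.29 (adjusted p = 0.0090), less than 3-fold, and the adult level differed from neither P28 (adjusted p = 0.12) nor P14 (adjusted p = 0.22). Without P14 replicate 2 the P14 to P28 change was 1.61 and past the 3-fold threshold.

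Cyp27a1, at chr1:74713574-74737892 on the plus strand, encodes the mitochondrial sterol side-chain hydroxylase. It measured 3.67 and 3.11 RPKM in the E18 libraries, 51.4 and 48.3 in those of P14, 231 and 249 in those of P28, and 357.7 and 358.1 in the adult ones. The duplicates lay close together and each stage was above the one before. Its log2 fold changes were 3.88 ± 0.12 (adjusted p = 1.8e-08) to P14, 2.27 ± 0.11 (adjusted p = 2.4e-06) to P28 and 0.58 ± 0.11 (adjusted p = 0.0096) to adult liver, the last being less than 3-fold.

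Cyp7b1, at chr3:18071950-18243338 on the minus strand, encodes the oxysterol hydroxylase of the alternative route and is known in mice for higher expression in male liver. It was the least abundant member at E18, at 0.383 and 0.290 RPKM from 115 and 77 reads, and at P14, at 1.71 and 1.83 RPKM. It reached 65.7 and 151 RPKM at P28 and 495 and 615 in adult liver, where only Slco1b2 and Slc10a1 had higher means among the members, the values of Slc10a1 overlapping its own. The log2 fold change was 2.39 ± 0.38 (adjusted p = 0.00042) from E18 to P14, 5.93 ± 0.39 (adjusted p = 1.1e-05) from P14 to P28 and 2.36 ± 0.33 (adjusted p = 0.0024) from P28 to adult. The span from E18 to adult was 10.68 ± 0.48 (adjusted p = 6.2e-08). At P28 its duplicates differed 2.29-fold, the widest gap between duplicates of any member at any stage.

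Genes with sex-biased expression in mouse liver are given beside it because they moved in the same libraries. The 6 male-biased genes (Mup20, Cyp4a12a, Cyp2d9, Hsd3b5, Elovl3 and C6) summed to 3.11 and 3.69 CPM in the E18 libraries, 20.3 and 20.4 in those of P14, 451 and 800 in those of P28, and 1117 and 1411 in the adult ones. All 6 were higher in replicate 2 of the P28 and adult stages, as Cyp7b1 was. The younger stages did not share this pattern. At E18, 2 of the 6 were higher in replicate 1 and 3 in replicate 2, while Cyp7b1 was higher in replicate 1. At P14, 4 were higher in replicate 1 and 2 in replicate 2, while Cyp7b1 was slightly higher in replicate 2. The 5 female-biased genes (Cyp2b9, Cyp2b13, Cyp3a41a, Cyp2a4 and A1bg) summed to 0.706 and 0.686 CPM in the E18 libraries, 131 and 137 in those of P14, 224 and 51.3 in those of P28, and 2.58 and 0.934 in the adult ones. At P28, 4 of these 5 were higher in replicate 1, for example A1bg at 107 and 24.3 RPKM and Cyp2b9 at 13.8 and 2.51 RPKM. Several of these genes have close paralogs whose reads can be shared, so single values are uncertain. Their part in the rise of Cyp7b1 was not tested, and sex and stage cannot be fully told apart in these duplicates.

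**Figure D3:**
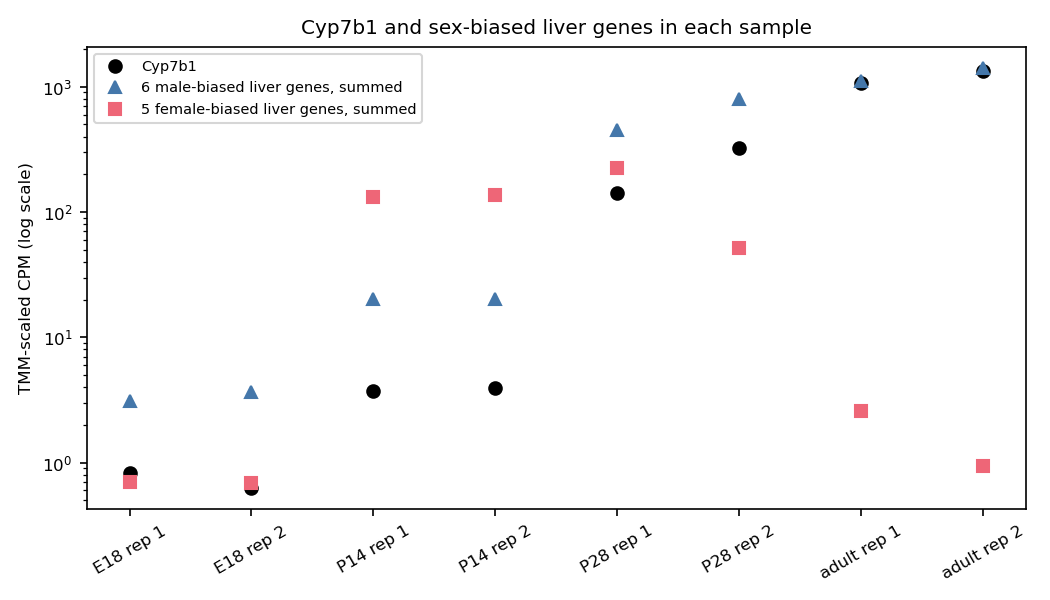
TMM-scaled CPM (log axis) of Cyp7b1 (circles), of 6 male-biased liver genes summed (triangles) and of 5 female-biased liver genes summed (squares) in each of the 8 libraries. Cyp7b1 and the male-biased sum stand highest in adult replicate 2, while the female-biased sum is 131 and 137 CPM at P14 and 2.58 and 0.934 CPM in adult liver.

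Baat, at chr4:49489422-49506557 on the minus strand, encodes the enzyme that conjugates bile acids. It measured 2.00 and 1.62 RPKM in the E18 libraries, 46.2 and 41.0 in those of P14, 218 and 245 in those of P28, and 289 and 283 in the adult ones. Its course was close to that of Cyp27a1. It rose by 4.59 ± 0.15 (log2; adjusted p = 1.8e-08) to P14 and by 2.41 ± 0.13 (adjusted p = 3.5e-06) to P28, and the adult and P28 levels did not differ by the test (0.31, adjusted p = 0.14).

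The uptake carriers had the largest log2 fold changes of the members from E18 to P14. Slc10a1, at chr12:80953183-80968705 on the minus strand, encodes the sodium-dependent carrier NTCP. It measured 5.49 and 5.60 RPKM in the E18 libraries, 221 and 213 in those of P14, 504 and 493 in those of P28, and 560 and 604 in the adult ones. The log2 fold change from E18 to P14 was 5.29 ± 0.12 (adjusted p = 5.2e-09). It was higher again at P28, by 1.20 ± 0.10 (adjusted p = 3.3e-05), under 3-fold, and adult liver did not differ from P28 by the test (adjusted p = 0.17).

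Slco1b2, at chr6:141629518-141686646 on the plus strand, encodes the sodium-independent carrier OATP1B2. It had 511 and 684 reads at E18, or 1.12 and 1.70 RPKM, and measured 260 and 226 RPKM in the P14 libraries, 465 and 480 in those of P28, and 700 and 766 in the adult ones. At P14 and in adult liver it was the most abundant member per length, although at E18 it ranked 7 of 8. The log2 fold change from E18 to P14 was 7.44 ± 0.24 (adjusted p = 1.8e-08), the largest of the members in that interval, and from E18 to adult 9.03 ± 0.25 (adjusted p = 5.1e-09), a 522-fold difference. From P14 to P28 and from P28 to adult it was higher by 0.96 (adjusted p = 0.0025) and 0.63 (adjusted p = 0.046), each under 3-fold.

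Abcb11, at chr2:69238282-69342616 on the minus strand, encodes the export pump. It measured 5.45 and 6.0 RPKM in the E18 libraries, 81.6 and 76.3 in those of P14, 143 and 119 in those of P28, and 116 and 128 in the adult ones. The adult and P28 libraries overlapped. The log2 fold change from E18 to P14 was 3.79 ± 0.14 (adjusted p = 3.4e-08). P28 exceeded P14 by 0.73 ± 0.12 (adjusted p = 0.0015), and adult liver did not differ from P28 by the test (-0.10, adjusted p = 0.66).

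The bases just before the start sites of Slco1b2, the member with the largest early rise, and of Abcb11 are shown because each holds the nuclear receptor hexamer AGGTCA, read here on the opposite strand as TGACCT and set in capitals. In Slco1b2 the capitals also mark GTTAAT, a core of the HNF1 motif. Both windows are the 250 bases before the RefSeq start on GRCm38.p6, written 5′ to 3′ on the strand of the gene, at chr6:141629268-141629517 (plus strand) for Slco1b2 and chr2:69342617-69342866 (minus strand) for Abcb11.
Slco1b2: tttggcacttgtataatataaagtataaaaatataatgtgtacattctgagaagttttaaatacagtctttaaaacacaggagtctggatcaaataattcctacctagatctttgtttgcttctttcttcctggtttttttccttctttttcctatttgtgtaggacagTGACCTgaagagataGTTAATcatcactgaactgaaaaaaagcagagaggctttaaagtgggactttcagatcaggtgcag
Abcb11: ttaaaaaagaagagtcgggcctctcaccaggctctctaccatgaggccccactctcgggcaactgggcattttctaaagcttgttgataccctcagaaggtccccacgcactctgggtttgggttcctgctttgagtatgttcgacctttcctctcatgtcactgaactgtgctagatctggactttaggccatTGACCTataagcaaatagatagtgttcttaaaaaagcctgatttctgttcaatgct
TGACCT lies 81 to 76 bases before the start in Slco1b2 and 56 to 51 bases before it in Abcb11, and GTTAAT lies 66 to 61 bases before the start in Slco1b2. RefSeq windows were matched for 5 of the 8 members, 6 windows in all since Slc10a1 has a pair of starts. Cyp7a1, Cyp7b1 and Baat had no window, so their promoters were not searched. AGGTCA, searched on both strands, was in 3 of these 6 windows and in 14.0% of 32851 windows of the same length. GTTAAT was in 1 of 6, against 6.43% of all windows. The longer form TCAAGGTCA, which itself holds the nuclear receptor hexamer, was in 0 of 6 and in 0.387% of all windows. The E-box CACGTG was in 0 of 6 and in 6.02% of all windows, and the same search for the D-box TTATGTAA gave 0 of 6 and 0.819%.

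The increase from E18 depends on what the libraries are scaled to. With library size alone, the median log2 fold change of all tested genes from E18 to adult was -0.95, and with libraries scaled to the 15 hepatocyte genes it was -2.20. Rising genes were 41.3% of the called genes with TMM, 21.2% with library size alone and 7.0% with hepatocyte gene scaling, and from E18 to P14 the same shares were 47.2%, 19.9% and 4.05%. All 8 members still had positive E18 to adult values under each, and under hepatocyte gene scaling they ran from 1.54 for Cyp7a1, below 3-fold, to 8.60 for Cyp7b1. From E18 to P14 the hepatocyte scaling left 5 members past the thresholds, Cyp8b1 at 1.58, Abcb11 at 1.55 and Cyp7b1 at 0.16 being under 3-fold. Under this scaling the largest log2 increase of Cyp27a1 and Baat also moved to the interval from P14 to P28. Cyp27a1 changed by 1.65 ± 0.14 from E18 to P14 and by 2.38 ± 0.14 from P14 to P28. For Baat the values were close, at 2.36 ± 0.15 and 2.52 ± 0.14.

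**Figure D4:**
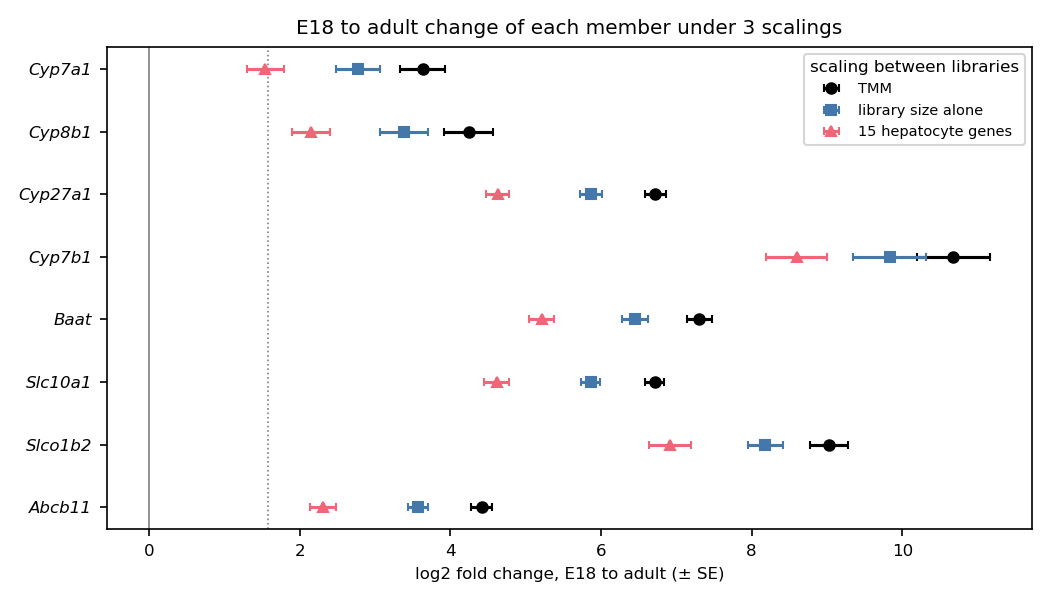
Log2 fold change from E18 to adult (± SE) of each member with libraries scaled by TMM (circles), by library size alone (squares) and to 15 hepatocyte genes (triangles), with a dotted line at 3-fold. Every point is positive, and the hepatocyte-scaled value of Cyp7a1 (1.54) is the one below the dotted line.

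Ratios between members within a library do not depend on scaling between libraries. The ratio of Cyp7a1 to Cyp7b1 per length, which sets the first enzyme of the classic route beside the oxysterol hydroxylase of the alternative one, had stage geometric means of 5.05 (E18), 15.8 (P14), 0.0895 (P28) and 0.0388 (adult). Cyp7a1 thus exceeded Cyp7b1 in all 4 libraries of E18 and P14 and was below it in all 4 later ones. The ratio differed among stages (exact permutation test of stage labels over libraries, p = 0.019, adjusted p = 0.024 over 5 ratios).

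The ratio of Cyp27a1 to Cyp7b1 was 10.1, 28.2, 2.41 and 0.648 at the same stages, and it fell below 1 only in adult liver (exact permutation p = 0.0095, adjusted p = 0.0159). The ratio of Cyp8b1 to Cyp7a1 was 4.87, 4.11, 30.6 and 7.47, highest at P28 (exact permutation p = 0.0286, adjusted p = 0.0286). Among the carriers, the ratio of Slc10a1 to Abcb11 was 0.970 (E18), 2.75 (P14), 3.83 (P28) and 4.76 (adult). The ratio of Slco1b2 to Slc10a1 moved from 0.248 at E18 to 1.12, 0.948 and 1.26. Both carrier ratios differed among stages (exact permutation p = 0.0095, adjusted p = 0.0159), and 0.00952 is the smallest p that this test can give.

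**Figure D5:**
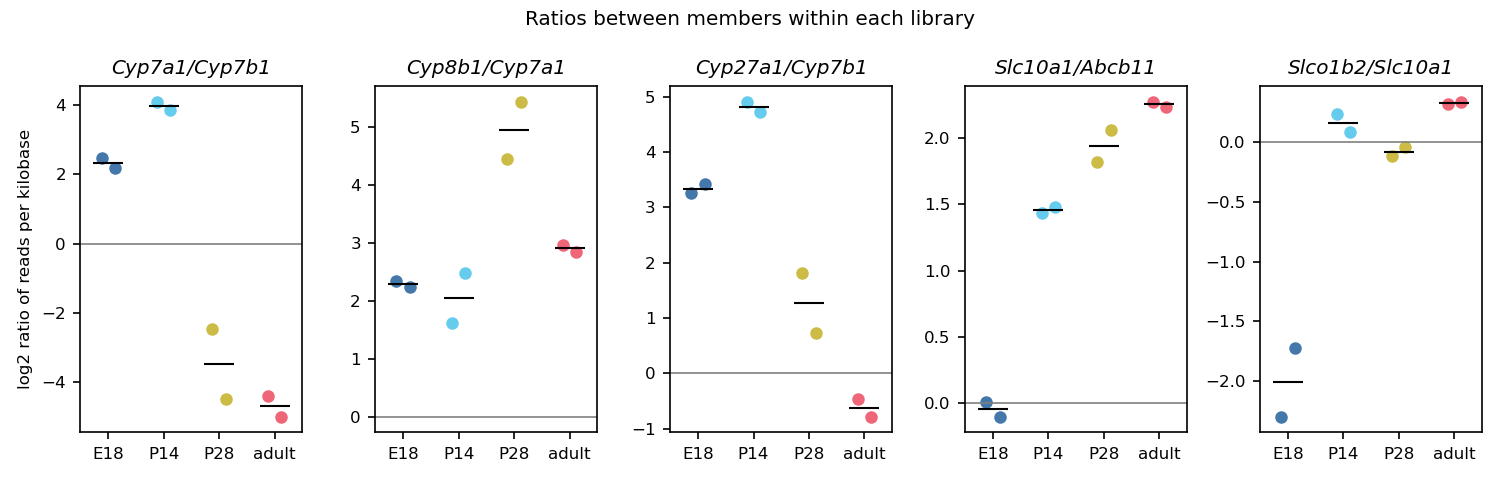
Log2 ratio of reads per kilobase between pairs of members within each library, by stage; points are the 2 libraries, the short line is their mean and the grey line marks equal levels. Cyp7a1/Cyp7b1 changes sign between P14 (geometric mean 15.8) and P28 (0.0895), and Slc10a1/Abcb11 climbs from 0.970 to 4.76.

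The make-up of the member group changed with stage. Cyp8b1 held 29.9% of the summed RPKM of the 8 members at E18 and 5.73% in adult liver. Slco1b2 went from 4.94% to 26.0% and Cyp7b1 from 1.18% to 19.7%, while Abcb11 went from 20.1% to 4.34%. Cyp7a1 was the least abundant member per length at P28 (0.471%) and in adult liver (0.763%). Among all 22059 genes ordered by RPKM, Slco1b2 moved from place 11046 at E18 to 106 in adult liver and Cyp7b1 from 13722 to 144, whereas Cyp7a1 stood at place 10520 (E18), 2104 (P14), 5223 (P28) and 2951 (adult).

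Other enzymes of the pathway rose with the members. Of 16 further bile acid enzymes, 13 rose and 0 fell from E18 to adult, with a median log2 fold change of 3.63. With hepatocyte gene scaling 7 rose and 2 fell (Cyp39a1 and Ch25h), and 12 rose and the same 2 fell with library size alone. The values of Ch25h rest on few reads, 15 and 16 at E18 and 0 and 5 in adult liver. Those that rose with TMM included Akr1d1 (3.79) and Hsd3b7 (3.58), which modify the sterol ring, the side-chain enzymes Scp2 (6.61), Acox2 (2.32) and Amacr (3.28), the bile acid CoA ligase Slc27a5 (5.26), and Cyp2c70 (5.91), which makes muricholic acids in mice. Of these, Hsd3b7 (1.49), Acox2 (0.22) and Amacr (1.18) were under 3-fold with hepatocyte gene scaling. Most of this came early, with 12 rising from E18 to P14, 2 from P14 to P28 (Scp2 and Cyp46a1) and 0 of 16 from P28 to adult, where 3 were higher and 1 lower at an unadjusted p under 0.05 in edgeR. Acot8 (0.58), Cyp39a1 (-1.11) and Ch25h (-1.55) did not pass both thresholds from E18 to adult with TMM. Akr1d1 stood highest at P14, at 215 and 195 RPKM, and measured 95.2 and 83.6 at P28 and 83.2 and 65.9 in adult liver. From P14 to P28, 8 of the 16 enzymes were higher and 3 lower at an unadjusted p under 0.05 in edgeR.

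Of 14 tested further transporters and transport proteins, 11 rose and 2 fell from E18 to adult, with a median of 4.84, against 8 and 2 with hepatocyte gene scaling, where Abcc2 (0.93), Abcc3 (0.49) and Atp8b1 (0.32) were under 3-fold. The sterol exporters Abcg5 (8.21) and Abcg8 (7.13) and the canalicular conjugate exporter Abcc2 (11.1 and 5.25 RPKM at E18, 63.5 and 67.3 in adult liver) rose, whereas the phosphatidylcholine floppase Abcb4 did not pass 3-fold (1.24, and -0.86 with hepatocyte gene scaling). Slco1a1, another organic anion carrier, went from 0.0381 and 0.0124 RPKM at E18 to 275 and 312 in adult liver. The ileal-type carrier Slc10a2 had 0 and 1 reads at E18 and measured 11.4 and 12.8 RPKM in adult liver. The basolateral exporter Abcc4 fell (-3.10). Of the heteromer that exports bile acids from the ileum, Osta went from 0.966 and 0.550 RPKM (E18) to 0 and 0.0195 (adult). Its partner Ostb peaked in the P14 libraries (30.5 and 33.2 RPKM). Adult liver held far less Ostb (3.45 and 3.21 RPKM), though more than E18 liver (0.133 and 0.184). From P14 to P28, 4 transporters rose and 3 fell. Abcg5 was lower at P28 (50.8 and 51.4 RPKM) than at P14 (165 and 161), though above its E18 level.

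Of 15 tested regulators, of which Hnf4a is also in the hepatocyte list, 11 rose and 0 fell from E18 to adult with TMM scaling, but 4 rose and 3 fell with hepatocyte gene scaling. The bile acid receptor FXR (Nr1h4) went from 3.52 and 3.60 RPKM at E18 to 67.2 and 69.2 in adult liver, with a log2 fold change of 4.26. Its target SHP (Nr0b2), a repressor of Cyp7a1, had 0.554 and 0.292 RPKM in the E18 libraries, 64.0 and 42.4 in those of P14, 70.0 and 90.0 in those of P28, and 42.0 and 27.8 in the adult ones. Fgfr4, the hepatic receptor for the gut hormone FGF15, rose with TMM (2.39) but was at 0.29 with hepatocyte gene scaling, and its co-receptor Klb did not pass the threshold with TMM (0.28) but fell with hepatocyte gene scaling (-1.82). From P14 to P28 and from P28 to adult, 0 of the 15 regulators passed both thresholds in edgeR, while at an unadjusted p under 0.05, 7 were higher and 2 lower in the first interval, and 2 higher and 3 lower in the next.

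The genes nearest in course to each member were found by the root mean square difference of log2(CPM + 0.1), each gene centred on its own mean over the 8 samples, among 8695 genes with a mean of at least 10 CPM. For Cyp7a1 these were Sult1d1 (0.342), Ppp1r3b (0.384) and Errfi1 (0.404), and for Cyp8b1 they were Rnf152 (0.283), C4b (0.369) and 9030617O03Rik (0.370). For Cyp27a1 they were Adh7 (0.171), Cml1 (0.185) and Ttc39c (0.198), and for Cyp7b1 they were Serpina12 (0.405), Slc22a30 (0.801) and Hsd3b5 (0.832), the last also among the male-biased genes. Cyp7b1 had the most distant neighbours of the 8 members. Baat lay nearest to Serpina3j (0.160), Serpina3c (0.222) and Serpina3i (0.248), which are close paralogs that can share reads. Slc10a1 lay nearest to 4930528F23Rik (0.114), Gm4951 (0.222) and Il1rap (0.239), and Slco1b2 to Lrg1 (0.254), Upp2 (0.265) and Apon (0.282). Abcb11 lay nearest to Gas2 (0.157), C8g (0.160) and 9030617O03Rik (0.163), the last also near Cyp8b1. Between members, Cyp27a1 and Baat were closest (0.320), followed by Cyp8b1 and Abcb11 (0.441).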

How the data were processed

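Liver RNA-seq was measured in 8 libraries, 2 per stage. Per the labels and the study's methods, RNA was isolated with Trizol or an RNeasy kit, sequenced as paired 100 bp reads and, in the submitters' processing notes, related to mm9. The aligner and counter are not given in the sources used here. The authors deposited, per gene, a read count and an RPKM value (reads per kilobase, scaled to 1000000 mapped reads), and gene lengths were recovered from the 2 columns. Gene coordinates come from a GENCODE annotation of GRCm38 and promoter windows from RefSeq, so no coordinate of the reads is implied. Counts were tested with edgeR 4.0.16 (TMM, quasi-likelihood, 1 coefficient per stage, Benjamini-Hochberg over 17081 genes), with DESeq2 1.42.0 and limma 3.58.1 as alternatives, limma on log2(RPKM + 0.1) and log2(RPKM + 1). With 2 libraries per stage, the edgeR p-values rest on a spread estimated over all 8 libraries, not on the duplicates of the compared stages alone. An exact test of 2 against 2 cannot go below 0.33. Within-library ratios used an exact permutation test over all libraries. The script was tested on simulated data. The 8 genes, the lists of enzymes, transporters, regulators, clock genes and cell markers, and the tests were chosen with earlier results of these data known. Every member is named, as are, for each, the 3 genes nearest to it in course by root mean square difference, and the genes named from the lists were chosen after their values were seen. Of the female-biased list, 1 gene is not reported here, and its sums leave it out.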

Additional observations from a re-analysis of the deposited data

How the results depend on the processing

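Over 19 alternative settings, 1 of them (without E18 replicate 1 and P14 replicate 2) added after seeing the data, 912 member fold changes from 48 results were recomputed: 881 kept their direction and side of the thresholds, 27 lost a call, 3 gained one and 1 changed sign. The number of members past the thresholds from E18 to P14 was 5 with hepatocyte gene scaling, and with a 2-fold threshold those from P14 to P28 and from P28 to adult were 6 and 2. Leaving out 1 library at a time gave 8 members from E18 to adult and from E18 to P14, 3 to 5 from P14 to P28 and 1 to 2 from P28 to adult, the 2 being Cyp7b1 and Cyp7a1 without P28 replicate 1. Abcb11 from P28 to adult, -0.10 with all libraries, ran from -0.23 to 0.043 when 1 was left out, changing sign without P28 replicate 1. The cause was not tested. Cyp7a1 from P14 to P28 ran from -2.06 to -1.24 when 1 library was left out, Cyp8b1 from P14 to P28 from 0.89 to 1.61, and Cyp7b1 from E18 to P14 was 1.52 with library size alone, 0.16 with hepatocyte gene scaling, and 1.38 and 0.70 with limma. Slco1b2 from P14 to adult stood at 1.59, 3.01-fold, and lay below 3-fold in 9 settings. Over all genes, 2353 rose and 2636 fell from E18 to P14 with TMM, against 506 and 11975 with hepatocyte gene scaling, and 131 rose and 382 fell from P28 to adult, against 36 and 39 with limma on log2(RPKM + 1). Of the lists from E18 to adult, called transporters went from 13 to 8 with at least 10 counts in every sample and with limma on log2(RPKM + 1), and called clock genes from 10 to 4 with the latter. The filter at 10 counts takes Slco1a1, Slco1a4, Osta, Ostb and Slc10a2 out of the test, since each had fewer reads in some library. All 5 ratios kept their calls, with a largest adjusted p of 0.0857 when 1 library was left out. Replicate numbers gave deviations correlated from -0.37 to 0.15 between stages, with no common sign. Such correlations cannot tell whether samples were paired in preparation, since duplicates of a stage also differ in other ways. With the replicate block the members past the thresholds were 8, 8, 4 and 1.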

Other observations

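Genes of the fetal hepatocyte fell on different schedules while the bile acid genes rose. Afp measured 49.5 and 86.8 RPKM at P14, after a log2 fold change of -7.79 from E18, whereas H19 was at 3349 and 7249 RPKM at P14 with a log2 fold change of 0.51 from E18 (edgeR adjusted p = 0.22), and fell from P14 to P28 (-12.03) and again from P28 to adult (-2.49). Igf2 measured 703 and 717 RPKM at E18, 137 and 600 at P14 and 0.165 and 0.142 at P28. The P14 duplicates of Igf2 thus differed more than those of any member at any stage.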
